A study of Mus musculus with 11 samples.

Results

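The Ikaros family and the lymphoid transcription factors are described here as 10 genes, taken by symbol from the deposited count table: Ikzf1, Ikzf2, Ikzf3, Bcl11a, Mef2c, Tcf3, Tcf4, Gata3, Tcf7 and Foxo1. All 10 symbols were found among the 55291 in the table, and all 10 were among the 17183 genes that held enough reads to be tested. The counts came from 11 libraries of Lin- cKit+ Sca-1+ (LSK) bone marrow cells, 1 C57BL/6 mouse to a library. They were 4 libraries of Phf6 R274X transgenic mice (Tg), 3 of Phf6 knockout mice (KO) and 4 of wild-type mice (WT). Phf6 encodes a chromatin protein with plant homeodomain zinc fingers, and R274X is a stop codon reported in human disease. The labels give no age or sex, no promoter for the transgene and no means by which the gene was knocked out.

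LSK cells hold haematopoietic stem cells and multipotent progenitors, and some of these progenitors already transcribe lymphoid genes at a low level before any lineage is chosen. The factors described here act along that path. Ikaros proteins are zinc finger factors that bind DNA with a GGGAA core and recruit chromatin remodelling and deacetylase complexes. E proteins, encoded by Tcf3, Tcf4 and Tcf12, are basic helix-loop-helix factors that switch on the lymphoid programme and are held inactive by Id proteins. Bcl11a and Mef2c act in lymphoid priming, Foxo1 at the IL-7 receptor and Rag genes, and Tcf7 and Gata3 downstream of Notch in early T cells.

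Libraries held 20990446 to 45632018 counts. Levels are given in CPM, the usual counts scaled to library size, with TMM factors unless library totals are named. The targeted gene Phf6 lay at 183 to 278 CPM in Tg, 15.4 to 23.96 in KO and 109.9 to 142 in WT. The LSK label was met by Kit, at 671 to 883 CPM in Tg, 579 to 648 in KO and 667 to 801 in WT, and Ly6a, which encodes Sca-1, lay between 20.0 and 40.6 CPM in every library. Xist, the RNA of the inactive X chromosome, lay at 0.031 to 0.297 CPM of library totals in Tg, 32.7 to 40.3 in KO and 50.02 to 53.8 in WT, so sex and the Tg genotype cannot be told apart. In 4 libraries, KO replicate 1 and WT replicates 1, 2 and 4, at least 1 CPM of Xist stood beside a mean of at least 1 CPM of 4 Y-linked genes, although the labels give individual mice. These 4 are named the mixed libraries below, and the source of their Y-linked reads was not tested. The calls of the 10 genes are given with and without them.

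In Tg LSK cells, 4 of the 10 genes fell against WT: Tcf7, Ikzf3, Tcf4 and Ikzf1. None of the 10 rose. The same 4 genes fell against KO, and between KO and WT no member passed the test in either direction. A gene was called at an adjusted p under 0.05 in edgeR's quasi-likelihood test across all 17183 genes, and by that rule 4.92% of all genes were called in Tg against WT, 2.39% lower and 2.54% higher. Against KO, 5.69% of all genes were called, 3.06% lower and 2.63% higher. Of the 10 log2 fold changes 9 lay below 0 in each comparison, with a median of -0.29 against WT and -0.36 against KO, beside medians of 0.0052 and 0.013 over all genes tested. In 3 of the 10, Ikzf1, Tcf4 and Tcf7, every Tg library lay below every WT library, as did 5.34% of all genes, and in 0 of the 10 every Tg library lay above, as did 4.5%. Against KO the Tg libraries lay wholly below in 4 of the 10 and wholly above in 0, beside 11% and 9.8% of all genes. The comparisons share the Tg libraries and so are not independent of each other.

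**Figure D1:**
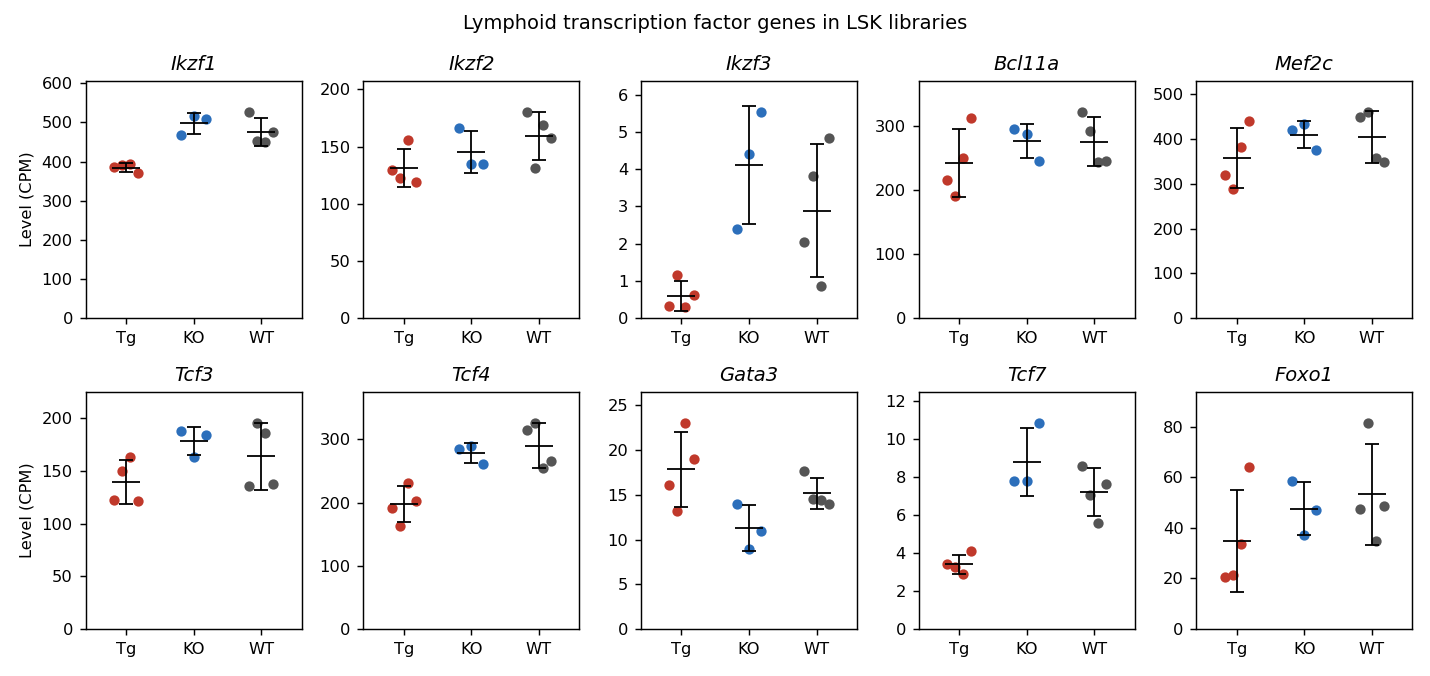
Level of each of the 10 genes in CPM (y axis, from 0, a separate scale for each gene) in the Tg, KO and WT libraries. Points are libraries, the wide bar is the mean and the whiskers are 1 SD (n = 4, 3 and 4). The Tg points of Ikzf1, Tcf4 and Tcf7 lie below every KO and WT point.

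Ikzf1, on chromosome 11 (11685003 to 11772926, plus strand, GRCm38), encodes Ikaros, without which mice form no B cells. It held 386, 390.3, 394 and 370.2 CPM in the 4 Tg libraries, 467, 517 and 509 CPM in the 3 KO libraries and 527, 452, 451 and 477 CPM in the 4 WT libraries. Every Tg library lay below every KO and WT library, and the Tg libraries lay close together, with a coefficient of variation of 2.70% beside 5.40% in KO and 7.46% in WT. The log2 fold change was -0.31 against WT (SE 0.071, or -19.2%, adjusted p = 0.0344 by edgeR) and -0.37 against KO (SE 0.077, or -22.6%, adjusted p = 0.0204). The call against WT did not outlast the removal of Tg replicate 1, 2 or 4, any KO replicate or WT replicate 1, 2 or 4 (adjusted p up to 0.101), and the call against KO did not outlast that of Tg replicate 1 or KO replicate 2 or 3 (up to 0.0961). Without the mixed libraries the log2 fold change was -0.22 against the remaining WT library (adjusted p = 0.519 by edgeR) and -0.42 against KO (adjusted p = 0.0496).

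RefSeq lists 2 starts of Ikzf1 with a promoter window, 250 bases before to 50 bases after the start. The 250 bases before each start are shown because the family's own GGGAA core, or TTCCC on the other strand, is present at the second start and not at the first. Capitals mark these letters, and both runs are from GRCm38.p6 on the plus strand, the first at chr11:11685675-11685924 and the second at chr11:11689927-11690176.
Ikzf1 first start: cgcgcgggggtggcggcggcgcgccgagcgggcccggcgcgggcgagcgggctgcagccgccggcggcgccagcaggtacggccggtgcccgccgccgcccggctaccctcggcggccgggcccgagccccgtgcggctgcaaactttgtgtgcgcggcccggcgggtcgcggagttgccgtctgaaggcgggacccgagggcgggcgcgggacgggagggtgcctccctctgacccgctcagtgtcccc
Ikzf1 second start: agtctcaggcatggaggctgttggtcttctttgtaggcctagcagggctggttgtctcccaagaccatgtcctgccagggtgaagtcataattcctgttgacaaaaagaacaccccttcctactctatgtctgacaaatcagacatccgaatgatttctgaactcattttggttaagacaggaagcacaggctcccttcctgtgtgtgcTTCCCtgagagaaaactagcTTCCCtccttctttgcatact
C and G made up 81.3% of the first window and 49% of the second. GGGAA in either direction was present in 62.7% of all 32851 RefSeq promoter windows of this length, so its presence at the second Ikzf1 start is common, and a match is a description of letters and not a bound site. Of the 11 windows listed for 7 members, 7 held it. The windows for Ikzf2, Ikzf3 and Tcf4 were not used here. The counts do not separate transcripts of the 2 starts.

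Ikzf2 (chromosome 1, 69531214 to 69687245, minus strand) encodes Helios, the Ikaros family member known from stem cells and regulatory T cells. It lay between 119 and 155 CPM in Tg, 135 and 166 in KO and 131 and 180.2 in WT, and all 3 ranges overlapped. Its log2 fold change was -0.28 against WT (SE 0.12, adjusted p = 0.204 by edgeR) and -0.14 against KO (SE 0.13, adjusted p = 0.587), with a 95% interval of -0.54 to -0.015 against WT.

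Ikzf3 (chromosome 11, 98464902 to 98546031, minus strand) encodes Aiolos, which acts later than Ikaros, in B cells and plasma cells. It was the lowest of the 10, at 0.33, 1.16, 0.30 and 0.61 CPM in the Tg libraries, 2.40, 4.41 and 5.53 CPM in the KO libraries and 2.03, 3.81, 0.86 and 4.84 CPM in the WT libraries. All 4 Tg libraries lay below all KO libraries, while WT replicate 3 lay within the Tg range. Ikzf3 passed the filter on low counts through KO and WT, since only 2 of the 4 Tg libraries reached its level of 0.321 CPM of library totals.

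The fall of Ikzf3 was the largest of the 10, with a log2 fold change of -2.25 against WT (SE 0.58, adjusted p = 0.0483 by edgeR) and -2.77 against KO (SE 0.61, adjusted p = 0.0256). The call against WT held only without Tg replicate 2 or WT replicate 3 among the fits that leave out 1 library (adjusted p up to 0.141 without Tg replicate 1). The call against KO was lost without Tg replicate 1 or 4 or KO replicate 2 or 3 (up to 0.0845). Without the mixed libraries it stood at -0.51 against the remaining WT library, replicate 3 (adjusted p = 0.847 by edgeR), and -3.05 against KO (adjusted p = 0.0300).

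Ikzf3 is also transcribed in mature lymphoid cells, and sums of their markers are set beside it. The 11 markers of NK and innate lymphoid cells summed to 30.0 to 52.0 CPM in Tg, 60.1 to 74.2 in KO and 41.4 to 71.7 in WT. The 5 plasma cell markers summed to 19.8 to 38.1 CPM in Tg, 165 to 201 in KO and 64.3 to 458 in WT. Jchain alone held 6.93 to 24.7, 140 to 174 and 49.8 to 415 CPM, most of the sum in KO and WT. All 5 had log2 fold changes below 0 in Tg against WT and against KO. Tnfrsf17, which encodes the plasma cell receptor BCMA, was at 0 in 3 of the 4 Tg libraries and at 0.254 to 4.23 CPM in KO and WT. Mzb1 and Prdm1 of the same list were low too, at no more than 3.17 and 5.70 CPM in any library. WT replicate 3, the lowest WT library for Ikzf3, was also the lowest WT library in the sums of B cell, plasma cell, T cell and NK and innate lymphoid markers. KO replicate 1, lowest for Ikzf3 in KO, was lowest there in the last 3 of these sums but highest in the B cell sum. Tg replicate 2 had the most Ikzf3 in Tg and the lowest plasma cell and T cell sums. Tg replicate 3 had the least Ikzf3, the highest plasma cell and T cell sums and the lowest NK and innate lymphoid sum. The part of these cells in the fall of Ikzf3 was not tested, and in such bulk libraries fewer cells of a type and less RNA per cell cannot be told apart.

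**Figure D2:**
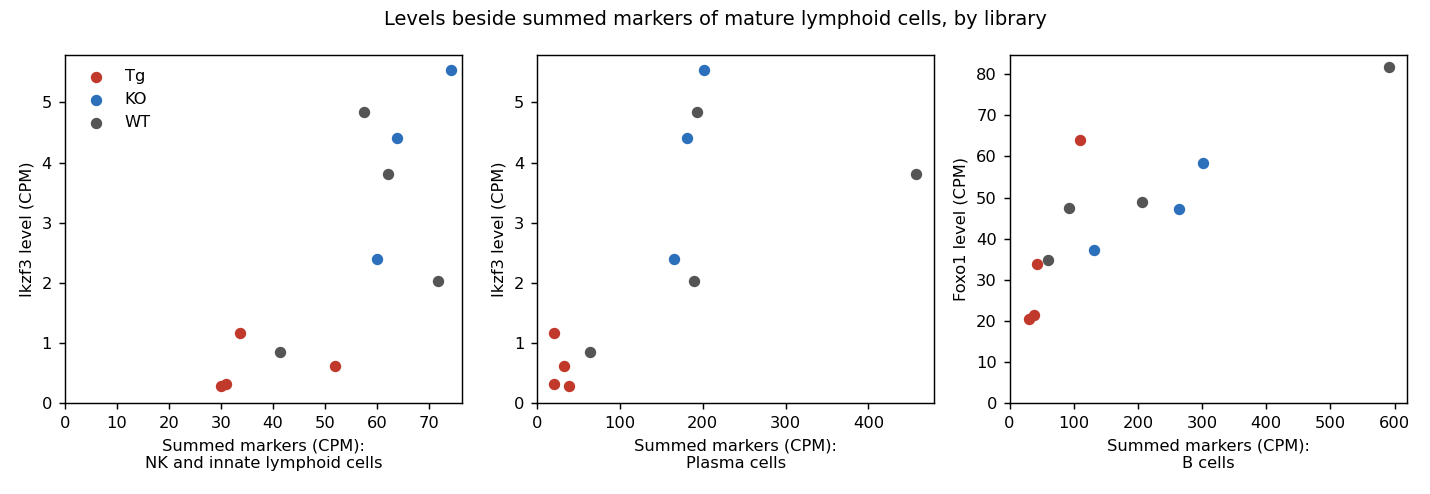
Ikzf3 level (y axis, CPM) against the summed CPM of NK and innate lymphoid markers (left) and of plasma cell markers (middle), and Foxo1 level against the summed CPM of B cell markers (right), 1 point to a library. Tg points sit at the low end of the plasma cell sum, 19.8 to 38.1 CPM, with WT replicate 3, at 64.3 CPM, nearest to them. Most of that sum is Jchain in the KO and WT libraries.

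Levels within the Ikaros family can be set side by side only per length of exon (CPM divided by kilobases of exon, RPKM). On that scale Ikzf1 made up a mean of 78.1% of the summed level of the 5 family genes in Tg, 80.6% in KO and 79.5% in WT. Ikzf2 followed with 13.3% in Tg, 11.7% in KO and 13.2% in WT, and Ikzf5, which encodes Pegasus, with 7.86%, 7.02% and 6.78%. Ikzf3 made up 0.080% in Tg, 0.438% in KO and 0.320% in WT. The family's summed level was 83.4 to 88.2 RPKM in Tg, below the 104 to 109 RPKM in KO and the 97.4 to 114 RPKM in WT.

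Of the E proteins, Tcf4, on chromosome 18, encodes E2-2, which is required for plasmacytoid dendritic cells. It held 192, 163, 232 and 202.5 CPM in the Tg libraries, 285, 289.9 and 261 CPM in the KO libraries and 315, 326, 254 and 265 CPM in the WT libraries. No Tg library reached any KO or WT library. The log2 fold change was -0.56 against WT (SE 0.11, or -32.1%, adjusted p = 0.0233 by edgeR) and -0.50 against KO (SE 0.12, or -29.3%, adjusted p = 0.0396). The call against WT was lost without Tg replicate 1 or 2 or WT replicate 1 or 2 (adjusted p up to 0.0758), and the call against KO without Tg replicate 1, 2 or 4, any KO replicate or WT replicate 1 (up to 0.139). Without the mixed libraries neither call was made, at -0.36 against WT (adjusted p = 0.554 by edgeR) and -0.49 against KO (adjusted p = 0.143).

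Siglech, a defining gene of plasmacytoid dendritic cells, lay at 0.722 to 1.47 CPM in Tg, 0.972 to 1.62 in KO and 0.032 to 2.44 in WT, and Klk1 was at 0 in every library. The sum of that cell type's 9 markers was 101 to 482 CPM in Tg, 173 to 211 in KO and 38.3 to 124 in WT. In the Tg and KO libraries most of that sum was Ly6c2, which monocytes transcribe too. It held 447, 430.2, 71.8 and 230.1 CPM in the Tg libraries and 154, 115 and 153 in the KO libraries. In the WT libraries Ly6c2 stood at 6.48, 33.6, 15.6 and 85.5 CPM. There Bst2 of the same list held more in replicates 1 and 3, at 16.5 and 37.7 CPM. Of the 7 markers tested, 4 lay below 0 in Tg against WT (median -0.46) and 6 against KO (median -0.90), where Pacsin1 fell by 2.57 log2 units (SE 0.59, adjusted p = 0.0310 by edgeR), a call lost in 6 of the 11 fits that leave out 1 library and made without the mixed libraries. Pacsin1 lay at 0.131 to 0.369 CPM in Tg, 0.656 to 2.61 in KO and 0.349 to 1.72 in WT. It passed the filter on low counts through KO and WT. The part of plasmacytoid dendritic cells in the fall of Tcf4 was not tested. Ly6c2 rose in Tg against WT by 3.07 log2 units (SE 0.73, adjusted p = 0.0376 by edgeR), and its call was lost in 9 of the 11 fits that leave out 1 library, up to an adjusted p of 0.104 without Tg replicate 1.

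Tcf3 (chromosome 10, 80409514 to 80433647, minus strand) encodes E12 and E47, the E proteins needed for the first steps of B cell development. It held 122, 150.0, 164 and 122 CPM in the Tg libraries, 188, 163 and 184 CPM in the KO libraries and 136, 196, 186 and 138 CPM in the WT libraries. The WT libraries fell into a low and a high pair, and the Tg range overlapped both KO and WT. The log2 fold change was -0.23 against WT (SE 0.14, adjusted p = 0.365 by edgeR) and -0.36 against KO (SE 0.15, adjusted p = 0.198). Per length, Tcf3 made up 65.7% of the E protein level in Tg, 67.3% in KO and 64.5% in WT, and Tcf4 13.8%, 15.5% and 17.1%. The remainder was Tcf12, which encodes HEB, with a log2 fold change of -0.10 against WT (SE 0.069, adjusted p = 0.454).

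Among the inhibitors and partners of E proteins, 10 of 12 listed genes were tested, and 1 rose and 0 fell in Tg against WT by edgeR, with a list median of -0.07. That gene was Id1, which encodes a helix-loop-helix protein without a DNA-binding region that pairs with E proteins and keeps them off DNA. Id1 held 11.5, 25.2, 7.81 and 12.8 CPM in the Tg libraries, 3.804, 2.52 and 4.46 CPM in the KO libraries and 2.10, 1.38, 1.84 and 5.08 CPM in the WT libraries. Every Tg library lay above every other library. It rose by 2.48 log2 units against WT (SE 0.45, adjusted p = 0.0160 by edgeR) and by 2.00 against KO (SE 0.49, adjusted p = 0.0395). The call against WT was lost without WT replicate 1 (adjusted p = 0.050004), and that against KO without Tg replicate 1, 2 or 4 or any KO replicate (up to 0.151). Without the mixed libraries the values were 2.96 against WT (adjusted p = 0.263) and 2.03 against KO (adjusted p = 0.0902).

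The other Id genes did not follow it: Id2 had a log2 fold change of -0.71 against WT (SE 0.47, adjusted p = 0.424 by edgeR) and Id3 of -0.35 (SE 0.66, adjusted p = 0.806). Per length, Id1 made up 38.4 to 79.8% of the summed level of Id1, Id2 and Id3 in Tg, 18.9 to 26.8% in KO and 5.49 to 28.9% in WT. The summed level of the 3 genes overlapped between the genotypes, at 11.1 to 28.8 RPKM in Tg, 11.5 to 14.5 in KO and 6.11 to 21.7 in WT.

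Bcl11a (chromosome 11, 24078056 to 24174123, plus strand) and Mef2c (chromosome 13, 83504034 to 83667080, plus strand), both needed for lymphoid progenitors, did not pass the test. Bcl11a held 216, 191, 250.4 and 313 CPM in the Tg libraries, 296, 288 and 246 CPM in the KO libraries and 322, 292, 244 and 245 CPM in the WT libraries. Mef2c held 319, 289, 381 and 439.7 CPM in the Tg libraries, 421, 433 and 375 CPM in the KO libraries and 449, 460.2, 358 and 349 CPM in the WT libraries. Within Tg both genes ran in the same order, lowest in replicate 2 and highest in replicate 4, which lay within the WT range. The log2 fold change against WT was -0.19 for Bcl11a (SE 0.15, adjusted p = 0.511 by edgeR) and -0.18 for Mef2c (SE 0.14, adjusted p = 0.496). The 95% intervals, -0.51 to 0.14 for Bcl11a and -0.48 to 0.13 for Mef2c, leave room for a fall of the size seen for Ikzf1.

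Mef2 factors are held in check by class IIa deacetylases, of which all 4 were tested and Hdac9 alone fell in Tg against WT by edgeR, with a list median of -0.35. Hdac9 held 6.83, 9.38, 6.70 and 13.0 CPM in the Tg libraries, 25.2, 28.04 and 30.7 CPM in the KO libraries and 16.5, 26.7, 12.9 and 20.3 CPM in the WT libraries. Tg replicate 4 reached the lowest WT library, and no Tg library reached a KO library. Hdac9 fell by 1.09 log2 units against WT (SE 0.25, adjusted p = 0.0336 by edgeR) and by 1.64 against KO (SE 0.26, adjusted p = 0.00654). The call against KO was made without each of the 11 libraries in turn and without the mixed libraries (-1.72, adjusted p = 0.0226). The call against WT was lost in 8 of the 11 such fits (adjusted p up to 0.104 without Tg replicate 1) and without the mixed libraries (-0.52, adjusted p = 0.641).

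Tcf7 (chromosome 11, 52252371 to 52283014, minus strand) encodes TCF-1, which Notch signals induce in the thymus and which starts the T cell programme. It held 3.43, 3.24, 2.89 and 4.09 CPM in the Tg libraries, 7.78, 7.77 and 10.9 CPM in the KO libraries and 8.58, 7.07, 5.58 and 7.62 CPM in the WT libraries. The highest Tg library lay below the lowest KO and WT library. Tcf7 fell by 1.08 log2 units against WT (SE 0.19, or -52.7%, adjusted p = 0.0135 by edgeR) and by 1.37 against KO (SE 0.20, or -61.2%, adjusted p = 0.00400). It was the only one of the 10 genes called in both comparisons without each of the 11 libraries in turn, with an adjusted p of up to 0.0449 against WT and 0.0252 against KO. Without the mixed libraries Tcf7 was called against KO (-1.46, adjusted p = 0.0251 by edgeR) and not against the remaining WT library (-0.70, adjusted p = 0.462).

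One of the 2 RefSeq starts of Tcf7 lies within the gene, on the minus strand. The 116 bases before it that are free of annotated exons, at chr11:52282596-52282711 of GRCm38.p6, are shown because they hold the Ikaros family core in both directions. Capitals mark GGGAA and TTCCC.
Tcf7 internal start: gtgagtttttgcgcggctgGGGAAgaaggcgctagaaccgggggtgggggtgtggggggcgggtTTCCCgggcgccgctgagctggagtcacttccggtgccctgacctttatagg
The whole window of 300 bases at this start held 4 such matches. It also held 1 match each to CAGGTG, a favoured E protein site that 20.2% of all windows hold, and to GTAAACA, a forkhead site that 3.65% hold, counted on both strands. It was the 1 window of the 11 with either. No binding was measured, and the counts do not separate this start from the other.

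The 12 T cell markers summed to 35.01 to 40.5 CPM in Tg, 46.1 to 65.1 in KO and 47.6 to 67.9 in WT, so that the sum was lower in every Tg library. Of the 11 tested, edgeR called 1 lower against WT and 2 against KO, and 0 higher. Wholly below in Tg lay 2 against WT and 3 against KO, beside 5.34% and 11% of all genes. Cd3g, called against KO, lay at 0 to 0.075 CPM in Tg and up to 1.17 elsewhere. It passed the filter on low counts through KO and WT. Lat, the largest part of the Tg sum, lay at 17.7 to 22.4 CPM in Tg, 15.1 to 21.6 in KO and 22.1 to 29.0 in WT. The kinase gene Lck, which lymphoid progenitors transcribe too, made up 11.5 to 15.03 CPM of the sum in Tg, 20.05 to 29.99 in KO and 20.9 to 36.6 in WT. Cd3e, a subunit of the T cell receptor complex, lay at 0 to 0.25 CPM in Tg, 0.11 to 1.17 in KO and 0 to 2.00 in WT. The part of T cells in the fall of Tcf7 was not tested.

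Other genes of the TCF/LEF family lay lower in Tg as well. Tcf7l2 held 24.2, 20.2, 27.8 and 30.7 CPM in the Tg libraries, 39.7, 44.8 and 36.4 in the KO libraries and 51.2, 45.1, 31.3 and 38.4 in the WT libraries, with no overlap. It fell against WT by 0.69 log2 units (SE 0.16, adjusted p = 0.0363 by edgeR). Tcf7l1, a repressor of the family, fell by 1.08 (SE 0.27, adjusted p = 0.0443). These calls were lost in 8 and 9 of the 11 fits that leave out 1 library, up to adjusted p of 0.110 and 0.136, both without Tg replicate 1. Against KO neither gene was called. Tcf7l1 lay at 1.08 to 2.24 CPM in Tg, 1.68 to 2.16 in KO and 2.51 to 3.65 in WT. In KO against WT its log2 fold change was -0.66 (SE 0.29, adjusted p = 0.692 by edgeR), with no overlap. Lef1 held 1.03, 1.48, 0.722 and 9.96 CPM in the Tg libraries, 45.2, 10.03 and 37.1 CPM in the KO libraries and 3.49, 81.4, 1.97 and 30.0 CPM in the WT libraries. Its spread within each genotype was wide and its log2 fold change of -3.16 (SE 1.18, adjusted p = 0.144) was not called. Of the 15 paralogues of the 10 genes, these 2 were called lower and 0 higher in Tg against WT (median -0.10), with 6 at an unadjusted p under 0.05. In Tg against KO edgeR called 0 of the 15, with 4 at an unadjusted p under 0.05, DESeq2 called 1 and limma-voom 0. Over all 17183 genes, 1881 were higher and 1914 lower at such a p in edgeR against WT, and 1845 and 1876 against KO.

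Of 16 genes of the Notch and Tcf7 pathway, 15 were tested, and 3 fell and 0 rose in each of the comparisons of Tg by edgeR: Notch1, Tle4 and Il2ra. Notch1, the receptor upstream of Tcf7, held 195, 158, 169.9 and 197 CPM in the Tg libraries, 283, 341 and 259 in the KO libraries and 295, 269, 246 and 275 in the WT libraries. It was lower in every Tg library than in any other. Against KO it fell by 0.71 log2 units (SE 0.11, adjusted p = 0.00578 by edgeR). Tle4, a corepressor that TCF-1 binds, fell by 0.33 against WT (SE 0.062, adjusted p = 0.0178) and by 0.33 against KO (SE 0.067, adjusted p = 0.0192). The call of Tle4 was lost without Tg replicate 1 or WT replicate 2 against WT (adjusted p up to 0.0534) and without Tg replicate 1 or any KO replicate against KO (up to 0.0908). Il2ra, a TCF-1 target in thymocytes, was near the counting limit, with counts in 1 of the 4 Tg libraries and no library above 0.78 CPM. It passed the filter on low counts through KO and WT. Its calls were lost in 10 of the 11 fits that leave out 1 library against WT and 7 against KO.

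Gata3 (chromosome 2, 9857078 to 9890034, minus strand) encodes a zinc finger factor of T cells and innate lymphoid cells, and was the only one of the 10 with a log2 fold change above 0 in Tg. It held 16.2, 13.2, 23.1 and 19.0 CPM in the Tg libraries, 14.0, 8.92 and 10.996 CPM in the KO libraries and 17.7, 14.6, 14.5 and 13.9 CPM in the WT libraries. The Tg range took in all 4 WT libraries and reached into KO. Against WT its log2 fold change was 0.23 (SE 0.18, adjusted p = 0.507 by edgeR) and against KO 0.66 (SE 0.20, adjusted p = 0.0835). DESeq2 called the difference from KO (0.66, adjusted p = 0.0220). Between KO and WT Gata3 had the lowest p of the 10, with a log2 fold change of -0.42 (SE 0.20, adjusted p = 0.710 by edgeR). Gata2, a stem cell factor, made up most of the GATA level per length, with a mean of 78.3% in Tg, 78.7% in KO and 75.7% in WT.

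Foxo1 (chromosome 3, 52268336 to 52353221, plus strand) encodes a forkhead factor that PI3 kinase signals keep out of the nucleus and that activates Il7r and the Rag genes in B cell precursors. It held 20.4, 21.4, 33.7 and 63.9 CPM in the Tg libraries, 58.5, 37.2 and 47.2 CPM in the KO libraries and 47.5, 81.7, 34.9 and 48.9 CPM in the WT libraries. Of the Tg libraries 3 lay below all WT libraries, while Tg replicate 4 lay above 3 of the 4. Foxo1 differed from WT by -0.61 log2 units (SE 0.36, adjusted p = 0.356 by edgeR) and from KO by -0.45 (SE 0.39, adjusted p = 0.559). The value against WT was -1.08 without Tg replicate 4, -0.32 without WT replicate 2 and 0.0098 without the mixed libraries, with no call in any of these fits.

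In each genotype the library with the most Foxo1 was also the one with the highest sum of the 12 B cell markers, and the library with the least Foxo1 the one with the lowest. The B cell sum was 30.1, 38.8, 43.0 and 109 CPM in the Tg libraries, 302, 131 and 264 in the KO libraries and 92.2, 591, 59.8 and 207 in the WT libraries. The part of B cells in the spread of Foxo1 was not tested. The gene Ms4a1, which encodes CD20, was at 0 in Tg replicates 1, 2 and 3. Per length Foxo3 made up most of the FOXO level, with a mean of 73.5% in Tg, 72.4% in KO and 73.3% in WT, and Foxo1 7.05%, 8.998% and 9.59%.

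Of 21 targets and regulators of Foxo1, all tested, 6 fell and 0 rose in Tg against WT by edgeR, with a median log2 fold change of -0.31, and 4 fell and 0 rose against KO (-0.25). DESeq2, which called more of all genes than edgeR in either direction, called 7 lower and 1 higher against WT, and 6 lower and 0 higher against KO. Klf2, a FOXO target of lymphocytes, stood at 1182, 2295, 714 and 1215 CPM in the Tg libraries, 708, 891 and 957 in the KO libraries and 442, 556, 450.3 and 966 in the WT libraries. Its log2 fold change against WT was 1.16 (SE 0.34, adjusted p = 0.0719 by edgeR), and the groups overlapped. Ccng2 and Sesn1, stress genes that FOXO factors activate in many cells, fell against WT by 0.57 (SE 0.092, adjusted p = 0.0105 by edgeR) and by 0.65 log2 units (SE 0.11, adjusted p = 0.0125). Ccng2 lay at 50.4 to 65.6 CPM in Tg, 71.2 to 84.6 in KO and 80.1 to 94.1 in WT. The call of neither gene was lost against WT when any 1 library was left out. Against KO the call of Ccng2 was lost in 7 of these fits and that of Sesn1 in 4, up to adjusted p of 0.148 without KO replicate 1 and 0.120 without KO replicate 2. The other 4 were Il7r, Rag2 and Ccr7, which also belong to the early lymphoid list, and Bcl2l11, which encodes the death factor Bim. Their calls against WT were lost in 9 or 10 of the 11 fits that leave out 1 library, and without the mixed libraries none of the 21 genes was called against WT or KO by edgeR, with 3 and 7 at an unadjusted p under 0.05.

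**Figure D3:**
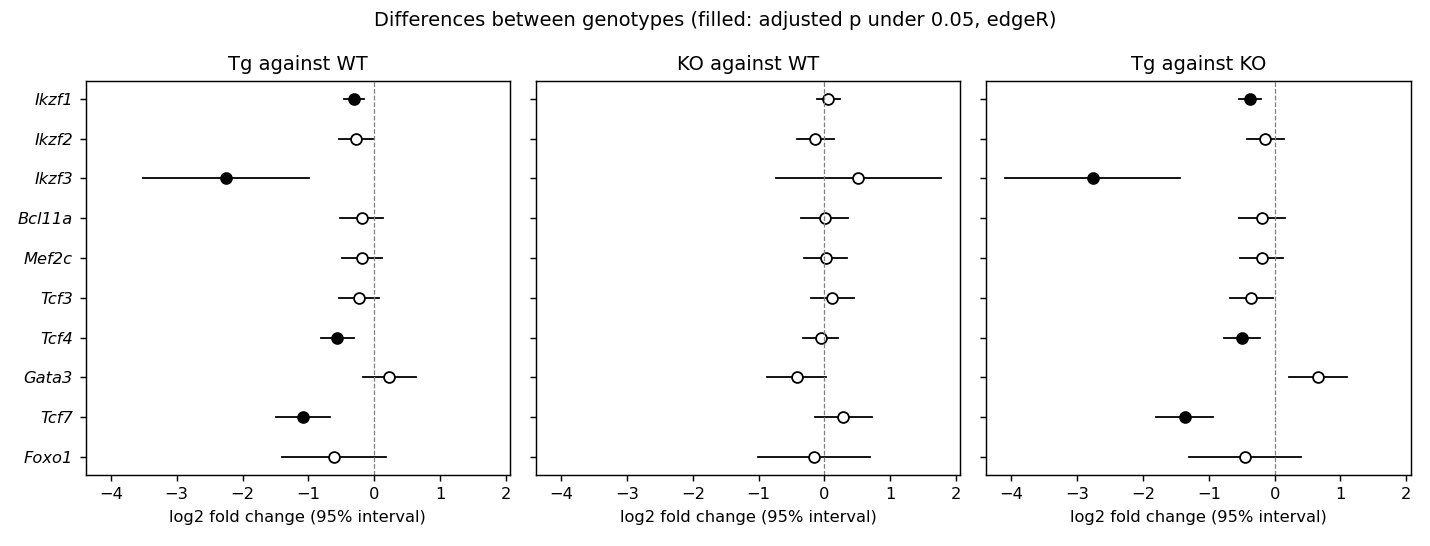
Log2 fold change of the 10 genes (x axis) in Tg against WT, KO against WT and Tg against KO, with bars for 95% intervals from edgeR and filled points for an adjusted p under 0.05. The same 4 genes are filled in both comparisons of Tg, Ikzf3 has the widest interval, and no point is filled between KO and WT.

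Of the 8 related lists, the early lymphoid list had the most called genes. The lists held 4 to 26 tested genes, shared some genes and were chosen with earlier results of these data known, so this order is a description. Over all genes 2.39% were called lower against WT and 3.06% against KO. Of 25 early lymphoid genes 24 were tested, and 9 fell and 0 rose in Tg against WT by edgeR, with a median log2 fold change of -1.47, and 9 fell and 0 rose against KO, with a median of -1.53. Rag2, Il7r, Dntt, Lsp1, Lck, Notch1 and Ighm were called in both, Arpp21 and Ccr7 against WT, and Cd52 and Cd79b against KO. Dntt, the terminal transferase, held 175, 115, 151 and 188 CPM in the Tg libraries, 371, 567 and 401 in the KO libraries and 668, 548, 314 and 506 in the WT libraries. It fell against KO by 1.51 log2 units (SE 0.24, adjusted p = 0.00654 by edgeR). Lsp1, a leukocyte cytoskeleton gene, fell against KO by 0.999 (SE 0.13, adjusted p = 0.00279). The calls of Dntt, Lsp1, Cd52 and Notch1 against KO were made without each of the 11 libraries in turn, while those of the other 5 were lost in 2 to 8 of these fits. Against WT the call of Arpp21 was lost in 5 of these fits, that of Ighm in 8 and those of Il7r, Rag2 and Ccr7 in 9 each, up to an adjusted p of 0.140. DESeq2 called 16 of the 24 against WT and 14 against KO, all lower, and limma-voom 5 and 8. Over all genes DESeq2 also called more than edgeR in either direction, with the numbers given in the last section. Ighm, the mu heavy chain gene, is transcribed in mature B cells and plasma cells too, and the part of these cells in its fall was not tested.

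Without the mixed libraries 5 of the 24 early lymphoid genes fell against KO, Dntt, Lsp1, Notch1, Ighm and Cd52, with a median of -1.64. Against the remaining WT library edgeR called 0 of the 24, with 4 at an unadjusted p under 0.05 and a median of -0.41, and 0 of the 10 members, with 1 at an unadjusted p under 0.05 and a median of -0.29. No gene of the other 7 related lists was called against that library either, and against KO Hdac9, Notch1 and Il2ra were. Ikzf2, Tcf3 and Gata3 stood at -0.35, -0.41 and 0.31 against it and at -0.042, -0.32 and 0.83 against KO, with no call. That fit assumes that WT replicate 3, alone in its group, varies as the other genotypes do. Against KO it called 3 of the 10 members, Tcf7, Ikzf3 and Ikzf1, with a median of -0.30. Of the WT libraries, replicate 3 had the lowest level of all 4 genes that fell, and each Tg library still lay below it in Ikzf1, Tcf4 and Tcf7.

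**Figure D4:**
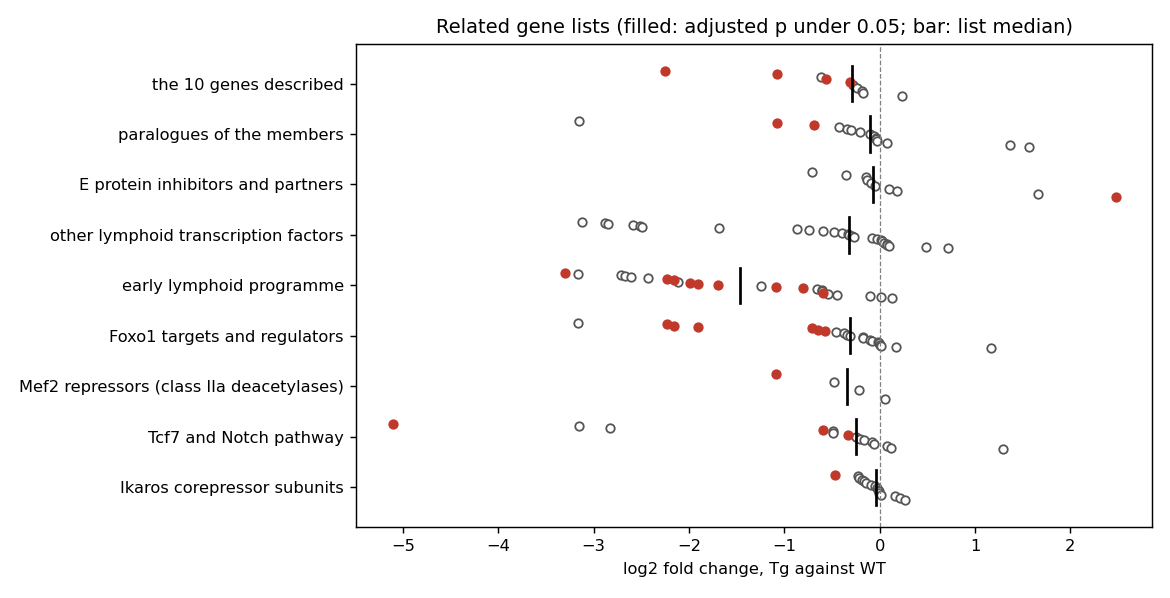
Log2 fold change in Tg against WT (x axis) of the 10 genes and of 8 related lists, 1 point to a tested gene, filled where the adjusted p was under 0.05 in edgeR, with a bar at the list median. The early lymphoid list has the lowest median, -1.47.

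Of 26 other transcription factors of lymphoid cells, all tested, edgeR called 0 in Tg against WT, with 15 at an unadjusted p under 0.05 and a median log2 fold change of -0.33. Over all 17183 genes, 1881 were higher and 1914 lower at that unadjusted p in edgeR. DESeq2, which called more of all genes than edgeR in either direction, called 8 lower and 2 higher, and limma-voom 0. Hhex, Zeb1 and Foxp1, all transcribed in progenitors, lay at -0.33 (SE 0.087, adjusted p = 0.0517 by edgeR), -0.32 (SE 0.083, adjusted p = 0.0527) and -0.29 (SE 0.082, adjusted p = 0.0631). Gfi1, a transcriptional repressor that acts in granulocyte and stem cell development, lay at 0.72 (SE 0.21, adjusted p = 0.0698 by edgeR). Against KO Eomes and Tbx21, the T-box factors of NK cells, fell by 3.24 (SE 0.78, adjusted p = 0.0360) and 3.15 log2 units (SE 0.80, adjusted p = 0.0424), and 0 rose. Both are markers of NK cells. Eomes lay at 0.033 to 0.216 CPM in Tg and up to 2.58 elsewhere, and Tbx21 at 0.025 to 0.123 in Tg and up to 0.805 elsewhere. Both passed the filter on low counts through KO and WT, since no Tg library reached its level of 0.321 CPM of library totals. Their calls were lost in 6 and 7 of the 11 fits that leave out 1 library, up to an adjusted p of 0.163 and 0.132 without KO replicate 3, and without the mixed libraries (0.0568 and 0.0946).

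Of 16 subunits of the corepressor complexes that Ikaros recruits, 1 fell and 0 rose in Tg against WT by edgeR, with a median of -0.04. This was Mta3, a subunit of the NuRD complex, at -0.47 (SE 0.087, adjusted p = 0.0171), whose call was lost without Tg replicate 1 (adjusted p = 0.0564) and without the mixed libraries (adjusted p = 0.419). Against KO 3 fell and 0 rose (median -0.10): Mbd2, Hdac1 and Mta3, at -0.30 (SE 0.072, adjusted p = 0.0356), -0.43 (SE 0.10, adjusted p = 0.0379) and -0.38 (SE 0.094, adjusted p = 0.0402). The calls against KO were lost in 7, 7 and 8 of the 11 fits that leave out 1 library, up to an adjusted p of 0.157, 0.147 and 0.177. They were not made without the mixed libraries (adjusted p = 0.198, 0.0794 and 0.112).

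Most markers of granulocyte-monocyte progenitors ran the other way, and most of those of macrophages and erythroid cells ran with the lymphoid genes. The 8 markers of granulocyte-monocyte progenitors summed to 24198, 21709, 4938 and 9687 CPM in the Tg libraries, 4291, 3902 and 5049 in the KO libraries and 1947, 1448, 2748 and 3611 in the WT libraries. Of these 8, 6 rose and 0 fell in Tg against WT by edgeR (median 2.64) and 2 rose and 0 fell against KO (median 1.81). Csf1r and Ly86 of that list lay lower in Tg than in KO, with log2 fold changes of -0.58 (adjusted p = 0.356 by edgeR) and -1.07 (adjusted p = 0.0673). Of 8 macrophage markers, 3 fell and 0 rose against WT (median -2.64), Spic, Cd5l and Mrc1, and 2 fell and 0 rose against KO (median -2.25). In each comparison 1 of the 8 lay above 0. The sum of the 8 overlapped between the genotypes, at 19.4 to 119 CPM in Tg, 30.0 to 127 in KO and 32.3 to 213 in WT. Vcam1 of that list held 107, 52.8, 15.3 and 71.6 CPM in the Tg libraries. It held 11.5, 38.5 and 29.9 in the KO libraries and 129, 22.9, 12.3 and 69.3 in the WT libraries. Of 7 erythroid markers, 2 fell and 0 rose against WT (median -1.81), and 1 fell and 0 rose against KO (median -1.40). Cd5l lay at 0.033 to 0.405 CPM in Tg, and Alas2, an erythroid marker called against WT, at 0.081 to 0.338. Both passed the filter on low counts through KO and WT. With the mixed libraries left out, the calls of these 3 lists were 0 against WT, with medians of 2.39, -0.91 and -0.76, and against KO those of Spic and Cd5l alone were made. The part of any of these cells in the lower levels of Ikzf1, Ikzf3, Tcf4 and Tcf7 was not tested.

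Between KO and WT none of the 10 genes passed the test. In KO against WT 0 of the 10 were called by edgeR, where 0.0233% of all genes were, 0.0175% lower and 0.00582% higher. None of the 10 had an unadjusted p under 0.05, and DESeq2 and limma-voom called 0. Over all 17183 genes, 573 were higher and 645 lower in KO at such a p in edgeR. In 0 of the 10 did the KO libraries lie wholly below or wholly above the WT libraries, as in 3.71% and 3.79% of all genes. The log2 fold change was 0.06 for Ikzf1 (95% interval -0.11 to 0.23), -0.06 for Tcf4 (-0.33 to 0.21), 0.29 for Tcf7 (-0.15 to 0.72) and 0.52 for Ikzf3 (-0.74 to 1.77). For Ikzf1, Tcf4 and Tcf7 the interval in KO does not reach the value in Tg, -0.31, -0.56 and -1.08. The direct comparison of Tg with KO is the test of that difference, and the KO and Tg values against WT share the WT libraries. None of the 8 related lists had a called member in KO against WT by edgeR, DESeq2 or limma-voom, and between 0 and 1 gene of each list had an unadjusted p under 0.05. With the mixed libraries left out, so with 2 KO libraries against WT replicate 3, edgeR called 0 of the 10 members in KO (1 at an unadjusted p under 0.05, median 0.17) and 0 genes of the 8 lists. There the early lymphoid list had 6 of 24 genes at an unadjusted p under 0.05 and a median of 0.92, beside 1 gene and -0.0060 with all libraries, and the other lymphoid factors had 5 of 26 and a median of 0.23.

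Set in order of level per length, Ikzf1 led in each genotype, with 66.6 ± 1.80 RPKM in Tg (SD, n = 4), 86.1 ± 4.65 in KO (n = 3) and 82.5 ± 6.16 in WT (n = 4). Tcf3, Mef2c, Bcl11a, Ikzf2 and Tcf4 followed in that order in all 3 genotypes, down to 7.20 ± 1.04 RPKM of Tcf4 in Tg, 10.2 ± 0.571 in KO and 10.6 ± 1.30 in WT. Below them the order differed: Gata3, Foxo1, Tcf7 in Tg, Foxo1, Tcf7, Gata3 in KO, and Foxo1, Gata3, Tcf7 in WT. Ikzf3 was last everywhere, at 0.068 ± 0.046 RPKM in Tg, 0.470 ± 0.181 in KO and 0.330 ± 0.204 in WT.

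Neighbours in this order whose libraries overlapped were Mef2c and Bcl11a and Gata3 and Foxo1 in Tg, and Tcf7 and Gata3 in KO. In WT they were Mef2c and Bcl11a, Ikzf2 and Tcf4, Tcf4 and Foxo1, and Foxo1 and Gata3. The order rests on the summed exon length of each gene, which is far longer than any 1 transcript for some. With the longest transcript in its place Mef2c came before Tcf3 and Tcf4 before Ikzf2 in each genotype.

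**Figure D5:**
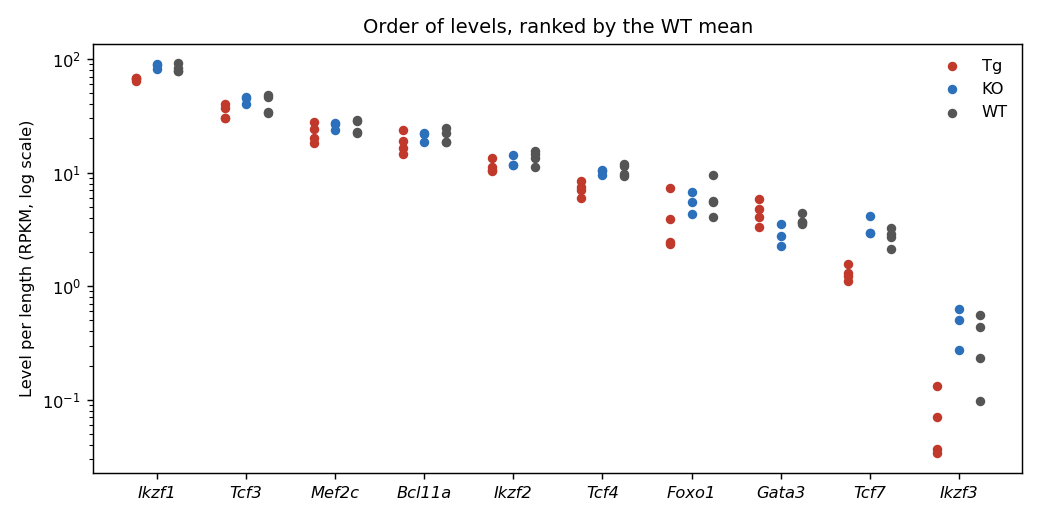
Level per length (y axis, RPKM, log scale) of the 10 genes, ordered by the WT mean, with Tg, KO and WT libraries side by side, 1 point to a library. Levels run from over 60 RPKM for Ikzf1 to under 1 RPKM for Ikzf3, and the Tg points of Tcf7 and Ikzf1 lie apart from those of KO and WT.

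The genes whose levels ran most like those of the 4 genes that fell were found over the 11 libraries by the root mean square difference of centred log2 CPM, among up to 10547 tested genes whose mean reached 5 CPM. Nearest to Tcf4 were Tspan13, Cd2ap and AI504432, with differences of 0.048, 0.069 and 0.077, where Tcf4 itself had an SD of 0.31 over the libraries. Nearest to Ikzf1 were Foxp1, a forkhead factor of early B cells, Cdc42se2 and Mettl23, with 0.058, 0.069 and 0.069 beside an SD of 0.18. Nearest to Tcf7 were Phf11b, Camk1d and Pink1, with 0.19, 0.22 and 0.24 beside 0.65. Nearest to Ikzf3 were Ccr2, a chemokine receptor of monocytes and innate lymphoid cells, Lgmn and Igkv15-103, with 0.49, 0.64 and 0.67 beside 1.53.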

How the data were processed

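RNA of sorted LSK bone marrow cells from 4 Tg, 3 KO and 4 WT mice was sequenced as paired reads on a NextSeq 500, per the labels' protocols. The deposited table holds raw read counts per gene, made by the authors; the tools STAR, HTSeq, FastQC and Trimmomatic and the build mm10 are from the submitters' processing notes, with no version or strand setting stated. Columns were matched to libraries by title. Library totals were 20990446 to 45632018 counts, and 3 counts, the floor used for counting error alone, came to 0.0657 to 0.143 CPM.

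Of 55291 genes, 24894 had no count and 17183 passed edgeR's filterByExpr (minimum count 10). One model in edgeR 4.0.16 covered the 11 libraries under R 4.3.3 (TMM, quasi-likelihood, Benjamini-Hochberg over all genes tested, 8 residual degrees of freedom), and 95% intervals are those of the fit. Replicates are individual mice, per the labels' protocols. Simulated counts with 200 changed genes served as a test of the scripts. Alternatives used DESeq2 1.42.0, limma 3.58.1 (voom), other scaling, filters, samples and covariates, and leaving out each library. Fits without the 4 mixed libraries, and on autosomal protein-coding genes alone, were chosen after seeing the data.

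The 10 genes and all lists were chosen with earlier results of these data known. Named are all 10 genes, the genes that checked genotype and sex, up to 4 genes of each list by lowest p in a comparison, and the 3 genes most like each called member; others are named where a count or a call was spelled out or, like Klf2, because their sign differed from their list's, chosen after their values were seen. Exon lengths and coordinates came from GENCODE M21 on GRCm38, and promoters from RefSeq on GRCm38.p6. Exons of other genes, some antisense, cover up to 7.78% of the exon length of Foxo1, Gata3, Bcl11a and Ikzf2. Figures were drawn with matplotlib 3.10.9 in Python 3.11.15.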

Additional observations from a re-analysis of the deposited data

Results flagged for a closer look

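Gata3 in WT replicate 1 stood apart from the other WT libraries, at 17.7 CPM against 13.9 to 14.6 CPM in the other 3. It was the only one of 20 groups of 4 libraries (10 genes in Tg and in WT) in which 1 library lay this far from the rest, and chance gives about 1 such group in 20. WT replicate 1 is 1 of the 4 libraries that hold both Xist and Y-linked reads.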

How the results depend on the processing

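No member turned direction against WT or KO in Tg under another test, scaling or filter. With all libraries edgeR called 436 genes higher and 410 lower in Tg against WT, and 452 and 526 in Tg against KO. Genes called higher and lower in Tg against WT numbered 942 and 970 by DESeq2, 194 and 164 with only these 2 genotypes, 926 and 720 with the Y-linked level as a covariate and 9 and 11 without the mixed libraries, where 0 members were called. With 2 genotypes 1 member was called, Tcf7. Against KO they were 963 and 959 by DESeq2, with 1 member higher, 278 and 317 with the Y-linked covariate, with 2 members lower, and 119 and 245 without the mixed libraries. In KO against WT they were 51 and 48 by DESeq2, 0 and 1 by limma-voom, 0 and 1 with 2 genotypes, 0 higher with the covariate and 2 higher without the mixed libraries.

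The replicate block gave 118 and 103 genes with 1 member lower (Tg against WT), 124 and 179 with 2 members lower (Tg against KO) and 0 and 1 (KO against WT). The shared numbers did not pair the libraries: same-numbered libraries of different genotypes correlated at -0.208 to 0.080 after removal of group means, beside -0.307 to 0.271 for other pairs.

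Leaving out 1 library gave 125 to 618 genes higher and 86 to 558 lower in Tg against WT, with 1 to 4 members lower. It gave 109 to 523 and 178 to 596 against KO, with 1 to 4, and 0 to 2 and 1 to 3 in KO against WT.

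Values near 0 turned direction. In Tg against WT without the mixed libraries Bcl11a came to 0.0023, Mef2c to 0.0044 and Foxo1 to 0.0098. In KO against WT Bcl11a came to -0.00092 by DESeq2 and with RLE factors, -0.036 with library totals, -0.0052 with the stricter filter, -0.0084 on autosomal genes and -0.059 to 0.076 without 1 library. Mef2c came to -0.021 with library totals and -0.045 to 0.088 without 1 library. Tcf3 came to -0.086 without the mixed libraries. Tcf4 came to 0.036 with the covariate, 0.13 without the mixed libraries and -0.12 to 0.0023 without 1 library. Foxo1 came to 0.0044 with the block, 0.14 with the covariate, 0.29 without the mixed libraries and -0.33 to 0.12 without 1 library. The cause was not tested. Over all members, comparisons and alternatives, 578 values stayed on the same side of the threshold with the same sign, 56 lost a call, 1 gained one and 25 turned. Of the 10 genes Ikzf3 came nearest to the counting floor, in Tg.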
